A study of Rattus norvegicus with 12 samples.

Results

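The 10 genes described here make the enzymes that turn arachidonic acid into eicosanoids: Pla2g4a, Ptgs1, Ptgs2, Ptges, Ptgis, Ptgds, Alox12, Alox15, Alox5 and Alox5ap. They were taken by symbol from a table of 12271 genes, and all 10 were listed. The set was chosen by pathway and partly selected on the log2 fold change of Alox12, which was among the genes with the largest drop under Wwtr1 siRNA. That rule had no numerical limit. For these 10 genes the comparison of Wwtr1 siRNA with negative siRNA is therefore given as a description without a test, and no p-value is given for Alox12 in any comparison that uses either of those groups.

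RNA was sequenced from primary cardiac fibroblasts, which lay down the heart's matrix, isolated from the ventricles of postnatal day 2 Sprague Dawley rats. Cells were transfected with negative siRNA (MISSION siRNA Universal Negative Control #1 and #2), Yap siRNA, Wwtr1 siRNA or both (Yap+Wwtr1 siRNA), each siRNA at 25 nM. The labels put collection 48 hours after transfection, whereas the study's methods describe a medium change a day after transfection and collection 48 hours after that. A pair of siRNAs was used against each target, and no group was left untransfected. There were 3 libraries per group and 12 in all, and by the study's methods each replicate came from separately pooled litters. For the Yap+Wwtr1 siRNA samples the siRNA label lists only those against Wwtr1, so their group was read from the titles. The design text mentions myocytes, whereas titles, labels and the study describe fibroblasts.

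Eicosanoids are short-range lipid signals. Cytosolic phospholipase A2 (Pla2g4a) frees arachidonic acid from membranes. The cyclooxygenases Ptgs1 and Ptgs2 convert it to prostaglandin H2, from which terminal synthases make prostaglandin E2 (Ptges), prostacyclin (Ptgis) or prostaglandin D2 (Ptgds). Lipoxygenases instead add oxygen to give hydroxy fatty acids or, for Alox5 with its partner protein Alox5ap, leukotrienes. In the heart, fibroblasts are a source of prostacyclin and prostaglandin E2, while leukotriene synthesis is known mainly from blood-derived cells. Yap, encoded by Yap1, and Wwtr1, also known as Taz, are related coactivators that bind DNA through TEAD transcription factors.

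Values are normalized counts, that is, read counts divided by the authors' size factor for the library, as far as the methods and the values show. Library totals ran from 33.9 to 41.1 M if the smallest step between the values of a library is worth 1 count, an inference that did not pass a check of whole reads in every library. Differences are log2 fold changes with standard error (SE) on the log2(normalized count + 1) scale from limma, and a gene was called at a Benjamini-Hochberg adjusted p under 0.05 over 11871 genes. Yap1 stood at 713, 739 and 1474 normalized counts in replicates 1, 2 and 3 of Yap+Wwtr1 siRNA, against 532 to 625 with Yap siRNA and 2984 to 3776 with negative siRNA. Wwtr1 was 731 to 1056 with Yap+Wwtr1 siRNA and 524 to 637 with Wwtr1 siRNA, a log2 fold change of 0.59 (adjusted p 0.00804 by limma, SE 0.13), so its depletion was weaker in the double knockdown. The 10 fibroblast markers made up 9.15% to 12% of all normalized counts in every library. Yap+Wwtr1 siRNA replicate 3 stood apart. Its chi-square per gene, on the counts inferred from these steps, was 120 and 124 against replicates 1 and 2, and no other pair of replicates exceeded 49.7. The macrophage marker sum of this replicate 3 was also the highest of all 12 libraries, and for several genes results are given with and without it.

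**Figure D1:**
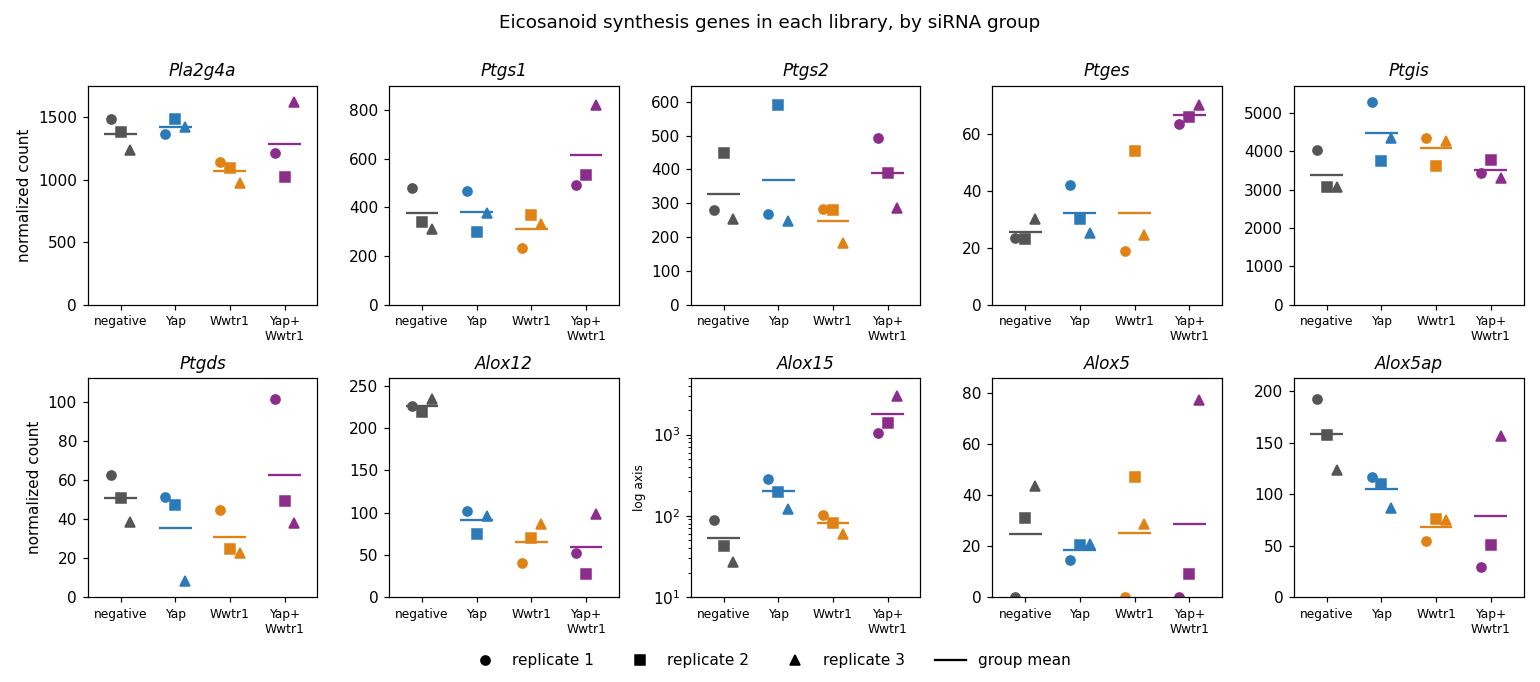
Normalized count (vertical axes, linear except the log axis for Alox15) of the 10 eicosanoid synthesis genes in each of 12 libraries, by siRNA group; symbols mark replicate numbers and horizontal lines the mean of 3 libraries. Alox12 was below every negative siRNA library in the other 9 libraries, and Alox15 and Ptges were highest in the 3 Yap+Wwtr1 siRNA libraries.

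Alox15, the 12/15-lipoxygenase, which oxygenates arachidonic and linoleic acid, had the largest difference of the 10 genes. It was 88.3, 43.0 and 26.9 normalized counts in replicates 1, 2 and 3 of negative siRNA. It was 283, 196 and 121 with Yap siRNA. It was 103, 80.6 and 58.9 with Wwtr1 siRNA, and 1044, 1371 and 2991 with Yap+Wwtr1 siRNA. The Yap+Wwtr1 siRNA libraries lay above all the others, and the Yap siRNA libraries lay above those of negative siRNA and Wwtr1 siRNA, whose ranges overlapped. Alox15 rose in the double knockdown by 5.09 on the log2 scale (adjusted p 2.67e-05 by limma, SE 0.47), which is 34.0-fold. Compared with Yap siRNA the rise was 3.10 (adjusted p 0.00177 by limma, SE 0.47), and compared with Wwtr1 siRNA it was 4.35 (adjusted p 0.000208 by limma, SE 0.47). Without Yap+Wwtr1 siRNA replicate 3 the rise over negative siRNA was 4.65 (limma adjusted p 4.29e-05). The sum of macrophage markers was lowest of all libraries in replicate 1 (Alox15 at 1044 normalized counts) and highest in replicate 3 (2991), and its part in the rise was not tested.

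With Yap siRNA alone Alox15 rose by 1.99 (adjusted p 0.0387 by limma, SE 0.47), or 3.97-fold. This call was lost in 6 of 12 fits that each left out 1 library, where the adjusted p ran from 0.0520 to 0.154, and over all 12 such fits the log2 fold change ran from 1.60 to 2.44. It was also lost without the mean-variance trend (limma adjusted p 0.0756) and with only the compared groups in the fit (limma adjusted p 0.0514). The libraries concerned were negative siRNA replicates 2 and 3, Yap siRNA replicates 1 and 2, Wwtr1 siRNA replicate 2 and Yap+Wwtr1 siRNA replicate 2. The call was kept with the replicate number as a block and without the Yap+Wwtr1 siRNA libraries. Over all alternatives its lowest limma adjusted p was 0.000317. With Wwtr1 siRNA the log2 fold change was 0.74 (SE 0.47). The difference between the single knockdowns, Yap siRNA minus Wwtr1 siRNA, was 1.25 (adjusted p 0.128 by limma, SE 0.47), and it passed with the replicate number as a block and without the Yap+Wwtr1 siRNA libraries (limma adjusted p 0.00382). The interaction, which is what the double knockdown shows beyond the added effects of Yap siRNA and Wwtr1 siRNA, was 2.36 (limma adjusted p 0.120), so a departure from additivity was not shown on the log2 scale.

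Alox12, the platelet-type 12-lipoxygenase, differed in the other direction. It was 226, 219 and 235 normalized counts in replicates 1, 2 and 3 of negative siRNA. The Yap siRNA libraries held 101, 75.0 and 96.4 and those of Wwtr1 siRNA held 39.7, 69.4 and 86.4. Under Yap+Wwtr1 siRNA the values were 51.7, 27.6 and 98.3. All 9 libraries with Yap or Wwtr1 siRNA were below all 3 negative siRNA libraries, and these 3 groups overlapped one another. As a description, its log2 fold change against negative siRNA was -1.32 under Yap siRNA, -1.85 under Wwtr1 siRNA and -2.10 under Yap+Wwtr1 siRNA (SE 0.40 each). The comparison of Yap+Wwtr1 siRNA with Yap siRNA took its difference from neither group that chose Alox12. Its interval and p-values still use a spread estimated from all groups, those 2 included. In this comparison the difference was -0.78 (95% confidence interval -1.65 to 0.09, limma adjusted p 0.222), which did not pass. Without Yap+Wwtr1 siRNA replicate 3, whose Alox12 was the highest of its group, it was -1.23 (limma adjusted p 0.0337), and without replicate 2, the lowest, it was -0.33 (limma adjusted p 0.599). RefSeq lists Alox12 also as a synonym of rat Alox15. The table holds both symbols as separate rows, which went in opposite directions.

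Alox5 and Alox5ap, the enzyme and the membrane protein that together start leukotriene synthesis, varied widely between libraries. Alox5ap was 193, 158 and 124 normalized counts in replicates 1, 2 and 3 of negative siRNA. It was 117, 110 and 86.9 with Yap siRNA, and 54.3, 75.5 and 75.2 with Wwtr1 siRNA. With Yap+Wwtr1 siRNA it was 28.8, 50.2 and 156, so replicate 3 lay inside the negative siRNA range and the others below all libraries of the negative and Yap siRNA groups. Alox5ap fell by 1.33 on the log2 scale in the double knockdown (adjusted p 0.0466 by limma, SE 0.47). That call was lost in 11 of 12 fits without 1 library, and the log2 fold change was -0.81 (limma adjusted p 0.171) without Yap+Wwtr1 siRNA replicate 1. It was also lost without the mean-variance trend (limma adjusted p 0.0656), with the replicate block (limma adjusted p 0.0555) and with only the compared groups (limma adjusted p 0.125). Without replicate 3 it was kept at -2.0 (limma adjusted p 0.000536). As a description, the log2 fold change with Wwtr1 siRNA was -1.19 (SE 0.47), and the 3 libraries lay below all 3 of negative siRNA.

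Alox5 was listed at 0 in replicate 1 of negative, Wwtr1 and Yap+Wwtr1 siRNA, and no fold change is given. It was 31.0 and 43.4 normalized counts in negative siRNA replicates 2 and 3, and 14.3, 20.3 and 20.9 in the Yap siRNA libraries. It was 46.9 and 28.5 in Wwtr1 siRNA replicates 2 and 3, and 9.20 and 77.2 in those of Yap+Wwtr1 siRNA. The groups overlapped, and the highest library was Yap+Wwtr1 siRNA replicate 3.

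Both genes are expressed in macrophages, whose markers were measured in the same libraries. The summed normalized counts of the 13 macrophage markers listed, of 14 in the list, were 24009 to 34521 with negative siRNA, 20429 to 30172 with Yap siRNA and 12649 to 21163 with Wwtr1 siRNA. With Yap+Wwtr1 siRNA the sum was 7515, 14951 and 52069 in replicates 1, 2 and 3, which is the order of Alox5ap and Alox5 in these libraries. Of these markers Cx3cr1 was at 0 in Yap+Wwtr1 siRNA replicate 1, and no other was at 0 in any library. Tbxas1, the thromboxane synthase, was 117, 239 and 619 normalized counts there, against 363 to 557 with negative siRNA. Hpgds, a prostaglandin D2 synthase of blood-derived cells, was 44.8, 25.1 and 162, against 99.2 to 128. In these bulk samples fewer macrophages and less RNA per macrophage cannot be told apart, and the part of these markers in the Alox5ap difference was not tested.

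**Figure D2:**
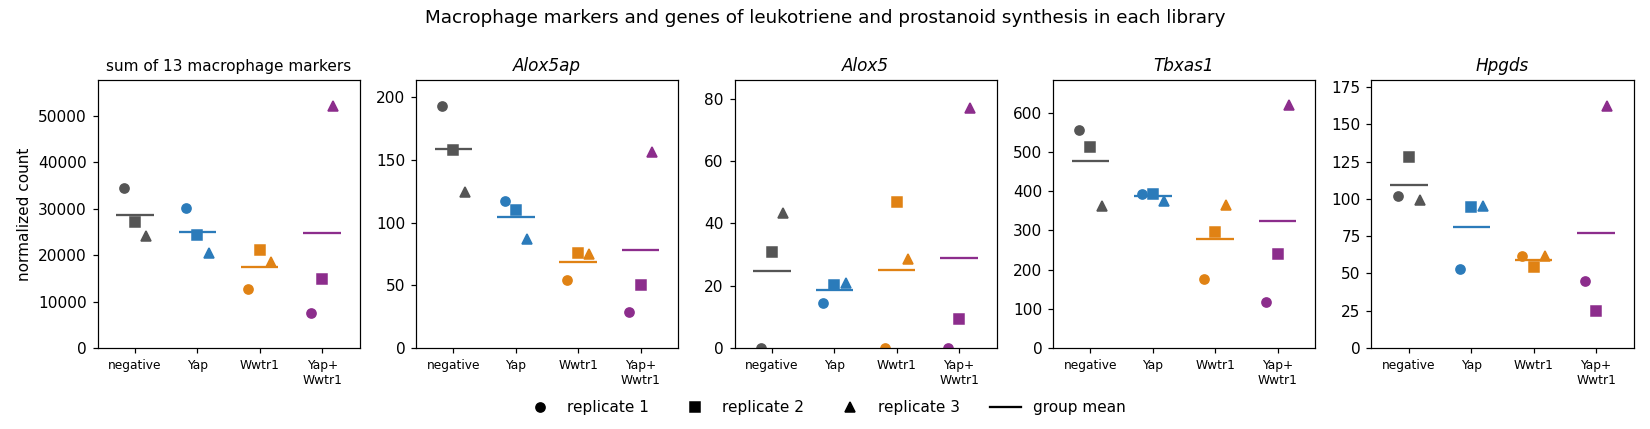
Normalized count (vertical axes, from 0) of the sum of 13 macrophage markers and of Alox5ap, Alox5, Tbxas1 and Hpgds in each of 12 libraries, by siRNA group; symbols mark replicate numbers and lines the mean of 3 libraries. Yap+Wwtr1 siRNA replicate 3 is the highest library for the marker sum (52069), Alox5 (77.2), Tbxas1 (619) and Hpgds (162), and it lies inside the negative siRNA range for Alox5ap.

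Ptges, the inducible prostaglandin E2 synthase, rose in the double knockdown. It was 23.6, 23.0 and 30.0 normalized counts in replicates 1, 2 and 3 of negative siRNA. The Yap siRNA libraries held 42.0, 30.0 and 25.1, and the Wwtr1 siRNA libraries 18.8, 54.1 and 24.4. With Yap+Wwtr1 siRNA it was 63.7, 66.1 and 70.2, above all 9 other libraries. The rise over negative siRNA was 1.36 (adjusted p 0.020 by limma, SE 0.39), or 2.57-fold. It was lost at adjusted p values of 0.0511 to 0.0571 when negative siRNA replicate 1 or 2 or Yap+Wwtr1 siRNA replicate 2 was left out. Against the single knockdowns the differences of 1.05 (Yap siRNA, limma adjusted p 0.0988) and 1.16 (Wwtr1 siRNA, limma adjusted p 0.0571) did not pass. The latter passed without Wwtr1 siRNA replicate 2 (1.59, limma adjusted p 0.0184), without the mean-variance trend (limma adjusted p 0.040) and with a pseudocount of 10 (limma adjusted p 0.0430). With Yap siRNA alone the log2 fold change of Ptges was 0.31 (95% confidence interval -0.55 to 1.17).

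The upstream sequences of Ptges and Alox12 are shown because these genes differed in opposite directions and because Yap and Wwtr1 act through TEAD factors. Of the 10 genes, 7 had an entry in the RefSeq promoter set (build GRCr8, matched by symbol), and Ptgis, Alox15 and Alox5ap are named only. The core motif of TEAD factors, GGAATG, was searched on both strands (CATTCC on the other) in the 250 bases before the gene start. It was found in 1 of these 7 genes, Ptges, beginning 174 bases before the start, and in 12.1% of 33469 promoters of this length. Both sequences read 5′ to 3′ towards the gene start, both genes lie on the minus strand, and capitals mark the motif. They are at chr3:34586988-34587237 for Ptges and chr10:55469200-55469449 for Alox12.
Ptges: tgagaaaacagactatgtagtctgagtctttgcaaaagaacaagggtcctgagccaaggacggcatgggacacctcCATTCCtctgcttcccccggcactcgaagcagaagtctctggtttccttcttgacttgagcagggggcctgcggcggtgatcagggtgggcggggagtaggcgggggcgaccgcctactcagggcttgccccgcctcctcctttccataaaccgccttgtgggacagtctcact
Alox12: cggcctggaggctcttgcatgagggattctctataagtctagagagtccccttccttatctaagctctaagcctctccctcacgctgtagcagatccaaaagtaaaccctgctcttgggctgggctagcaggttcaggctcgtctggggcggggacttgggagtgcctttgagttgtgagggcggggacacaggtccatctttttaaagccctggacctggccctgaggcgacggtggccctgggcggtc
A match is a run of letters and not a measured binding site, and no binding was measured in this series.

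Ptgs1, the constitutive cyclooxygenase, was 478, 340 and 312 normalized counts in replicates 1, 2 and 3 of negative siRNA. The Yap siRNA libraries held 467, 298 and 378, and the Wwtr1 siRNA libraries 234, 368 and 330. The Yap+Wwtr1 siRNA libraries held 490, 534 and 820 and lay above all 9 others. Ptgs1 rose by 0.97 over Wwtr1 siRNA (adjusted p 0.0182 by limma, SE 0.25). The call was lost without Yap+Wwtr1 siRNA replicate 3 (limma adjusted p 0.0524) or Wwtr1 siRNA replicate 1 (limma adjusted p 0.0629). Against negative siRNA the log2 fold change was 0.69 (adjusted p 0.0508 by limma, SE 0.25), just outside the threshold. It was 0.47 without Yap+Wwtr1 siRNA replicate 3 (limma adjusted p 0.159). It passed in 5 of 12 fits without 1 library, at 0.88 (limma adjusted p 0.0302) without negative siRNA replicate 1 and 0.84 (limma adjusted p 0.0428) without Yap+Wwtr1 siRNA replicate 1, and also with a pseudocount of 10 (limma adjusted p 0.0495) and over genes with a mean of at least 100 (limma adjusted p 0.0479). The other libraries whose removal made it pass were Wwtr1 siRNA replicate 1 and Yap siRNA replicates 1 and 2. Ptgs2, the inducible cyclooxygenase, was 253 to 450 normalized counts with negative siRNA, 246 to 591 with Yap siRNA, 182 to 282 with Wwtr1 siRNA and 284 to 492 with Yap+Wwtr1 siRNA. Its log2 fold change in the double knockdown was 0.26 (95% confidence interval -0.49 to 1.00), which did not pass.

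Ptgis, the prostacyclin synthase, was 4023, 3073 and 3072 normalized counts in replicates 1, 2 and 3 of negative siRNA and 5282, 3751 and 4358 with Yap siRNA. It was 4358, 3607 and 4260 with Wwtr1 siRNA and 3431, 3773 and 3312 with Yap+Wwtr1 siRNA. The groups overlapped, and within each same-numbered pair the Yap siRNA library was above that of negative siRNA. The log2 fold change with Yap siRNA was 0.40 (adjusted p 0.128 by limma, SE 0.14), and it passed with the replicate number as a block and without the Yap+Wwtr1 siRNA libraries (limma adjusted p 0.00489). In the double knockdown it was 0.06 (95% confidence interval -0.24 to 0.35).

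Ptgds and Pla2g4a were called in no comparison when all 12 libraries were fitted together without a block. Ptgds, a prostaglandin D2 synthase of the lipocalin family, ran from 8.38 to 101 normalized counts over the 12 libraries, and its log2 fold change in the double knockdown was 0.21 (95% confidence interval -1.15 to 1.56). Pla2g4a ran from 978 to 1624 normalized counts. Its log2 fold change was 0.06 with Yap siRNA (95% confidence interval -0.25 to 0.37) and -0.11 with Yap+Wwtr1 siRNA (95% confidence interval -0.42 to 0.20). The latter was -0.29 without Yap+Wwtr1 siRNA replicate 3 and 0.04 without replicate 2, and neither passed. With Wwtr1 siRNA Pla2g4a was 1144, 1093 and 978, below all 3 negative siRNA libraries at 1490, 1385 and 1235, a log2 fold change of -0.35 (SE 0.14). The difference between the single knockdowns, Yap siRNA minus Wwtr1 siRNA, was 0.41 (limma adjusted p 0.0956), and it passed with the replicate number as a block and without the Yap+Wwtr1 siRNA libraries (limma adjusted p 0.00504), without Yap+Wwtr1 siRNA replicate 3 (limma adjusted p 0.0203) and with only the compared groups (limma adjusted p 0.0312).

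**Figure D3:**
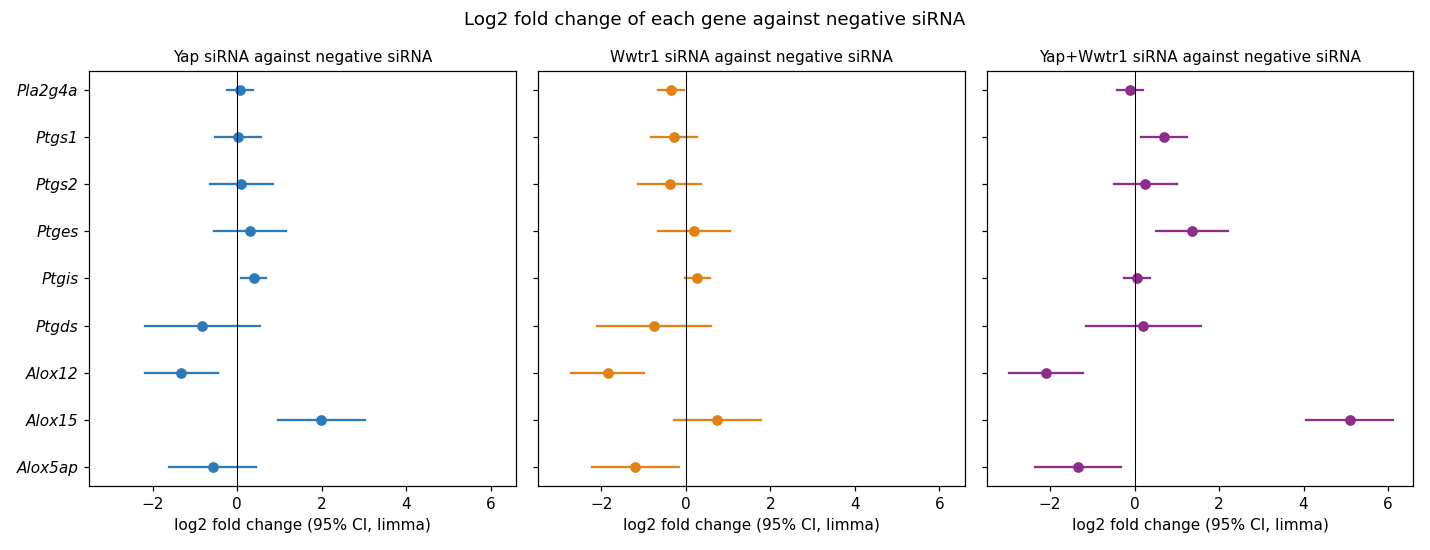
Log2 fold change against negative siRNA (horizontal axes) with 95% confidence intervals from limma, for 9 of the genes under Yap, Wwtr1 and Yap+Wwtr1 siRNA, with 3 libraries per group; Alox5 is left out because it was listed at 0 in 3 libraries, and the intervals of Alox12 and of the Wwtr1 siRNA panel are descriptions and not tests. Alox15 lies furthest to the right with Yap+Wwtr1 siRNA (5.09) and Alox12 furthest to the left (-2.10).

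In the double knockdown 3 of the 9 genes other than Alox12 were called, Alox15 and Ptges higher and Alox5ap lower, beside 32.8% of all genes tested. In either direction alone the share of all genes was 17.1% higher and 15.6% lower. Alox12 is left out of these counts because its values against negative siRNA chose it. With Yap siRNA Alox15 was called among the 9, beside 4.8% of all genes. For Wwtr1 siRNA against negative siRNA, the contrast that chose Alox12, 8.96% of all genes were called and the values of the 10 genes are descriptions. Compared with Yap siRNA, the double knockdown differed in 1 gene (Alox15, 13.8% of all genes), and compared with Wwtr1 siRNA in 2 (Alox15 and Ptgs1, 19.9% of all genes). The limma fits called 0 of the 9 between Yap and Wwtr1 siRNA (2 had an unadjusted p under 0.05, and 8.79% of all genes were called) and 0 for the interaction (3 had an unadjusted p under 0.05, and 1.03% of all genes were called). The comparisons with negative siRNA share its 3 libraries.

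Over the 12 libraries, Alox15 correlated with Ptges (Pearson r 0.79) and Ptgs1 (r 0.78), and Alox12 with Alox5ap (r 0.81). These are descriptions over libraries of 4 groups that share their group differences. The genes whose pattern was most like that of Alox12 were Gcnt2 (r 0.96), Hddc2 (r 0.94) and Mcm4 (r 0.94). For Alox15 they were Htra3, Adamts4 and Maf (r 0.99 each), and for Alox5ap Plau (r 0.99), RT1-DMa (r 0.97) and Coro1a (r 0.97). For Ptgs2 they were Zfp292 (r 0.92), Rbm5 and Marf1 (r 0.91 each). For Ptgis they were Psen2 (r 0.86), Sh3bp5 (r 0.84) and Sh3gl1 (r 0.83), and for Pla2g4a Tecpr1, Stard7 (r 0.95 each) and LOC102549471 (r 0.94).

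A list of 93 other genes of the pathway held 63 that were listed and 60 that were tested. In the double knockdown 18 of the 60 rose and 5 fell. Of all genes 17.1% were called higher and 15.6% lower, 32.8% in either direction, and these shares also stand beside the counts by role below. The median log2 fold change was 0.15 against 0.0035 over all genes tested. Among enzymes of leukotriene synthesis and other lipoxygenases 4 of 8 rose and none was called lower, and for phospholipases A2 the count was 3 of 10. Of the receptors, 3 of 8 rose and 1 fell. Of the genes that handle arachidonate before and after release, 4 of 9 fell and 1 rose. The counts of genes that rose were 3 of 9 for other prostanoid synthases, 3 of 10 for inactivation and transport and 1 of 6 for epoxygenases and epoxide hydrolases, with no call in the other direction. For Yap siRNA 1 of the 60 was called (Ptger4), with Wwtr1 siRNA 7, and between Yap+Wwtr1 and Yap siRNA 9, beside 4.8%, 8.96% and 13.8% of all genes in the same comparisons. More were called for both single knockdowns with the replicate number as a block and without the Yap+Wwtr1 siRNA libraries, as given at the end.

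Pla2g2a, a secreted phospholipase A2, was 53.4, 107 and 62.0 normalized counts in replicates 1, 2 and 3 of negative siRNA. In those of Yap+Wwtr1 siRNA it was 572, 634 and 4641. It rose by 4.05 (adjusted p 0.00520 by limma, SE 0.91), and by 3.07 (limma adjusted p 0.0123) without replicate 3. The glutathione transferases Mgst1 and Mgst2, microsomal enzymes related to leukotriene C4 synthase, rose by 2.24 (adjusted p 0.000241 by limma, SE 0.31) and 1.94 (adjusted p 0.000162 by limma, SE 0.25). Mgst1 was 3023 to 5121 with Yap+Wwtr1 siRNA and 575 to 965 with negative siRNA, without overlap. Acsl4, which activates arachidonic acid for its return to membranes, fell by 0.60 in the double knockdown (adjusted p 0.000277 by limma, SE 0.08). Its log2 fold change with Wwtr1 siRNA alone was -0.645, and between the double knockdown and Wwtr1 siRNA it was 0.05, which did not pass. Fads2, the desaturase on the way to arachidonic acid, fell by 0.37 (adjusted p 0.0135 by limma, SE 0.10), a call lost without negative siRNA replicate 1 (limma adjusted p 0.0562) or Yap+Wwtr1 siRNA replicate 2 (limma adjusted p 0.0572), or with only the compared groups in the fit (limma adjusted p 0.0607). Pla2g6, a calcium-independent phospholipase A2, was lower by 0.45 with Yap+Wwtr1 than with Yap siRNA (log2 fold change -0.45, adjusted p 0.0312 by limma, SE 0.12), and the call was lost in 4 of 12 fits without 1 library, those without replicate 1 or 2 of Yap+Wwtr1 siRNA or replicate 1 or 3 of Yap siRNA, and with only the compared groups (limma adjusted p 0.0720). Against Wwtr1 siRNA the double knockdown was higher in Pla2g6 by 0.61 (limma adjusted p 0.00505), and against negative siRNA its log2 fold change was -0.26 (limma adjusted p 0.130), while the log2 fold change with Wwtr1 siRNA alone was -0.87, so the direction depended on the comparison.

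Of the receptors of prostaglandin E2, the product of Ptges, Ptger4 was 370, 415 and 237 normalized counts in replicates 1, 2 and 3 of negative siRNA. The Yap siRNA libraries held 617, 594 and 508, those of Wwtr1 siRNA 488, 505 and 432, and those of Yap+Wwtr1 siRNA 844, 874 and 849. It was higher in all 9 of these libraries than in any negative siRNA library. The rise was 1.37 with Yap+Wwtr1 siRNA (adjusted p 0.000160 by limma, SE 0.18) and 0.78 with Yap siRNA (adjusted p 0.0301 by limma, SE 0.18), and the latter was lost without negative siRNA replicate 3 (limma adjusted p 0.0613) and without Yap siRNA replicate 1 or 2 (limma adjusted p 0.122 and 0.107). That call was also lost without the mean-variance trend (limma adjusted p 0.0573) and with only the compared groups (limma adjusted p 0.0781). Under Yap+Wwtr1 siRNA Ptger1 differed by -0.02 (95% confidence interval -0.31 to 0.27), Ptger2 by 0.14 (-1.19 to 1.46) and Ptger3 by -0.27 (-0.95 to 0.40), and none of these passed. For Ptger2 the value was -0.54 without Yap+Wwtr1 siRNA replicate 3 and 0.89 without replicate 1, so its sign depended on single libraries, and neither passed. The receptors were not tested against one another, and the interval of Ptger2 includes the rise of Ptger4. Ptgir, the prostacyclin receptor, rose by 1.45 (adjusted p 0.00115 by limma, SE 0.25), from 51.7 to 60.5 normalized counts with negative siRNA to 137 to 173 with Yap+Wwtr1 siRNA; this gene was chosen after its values were seen. Tbxa2r, the thromboxane receptor, fell by 1.13 (adjusted p 0.00250 by limma, SE 0.22), from 732 to 1029 with negative siRNA to 282 to 548.

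**Figure D4:**
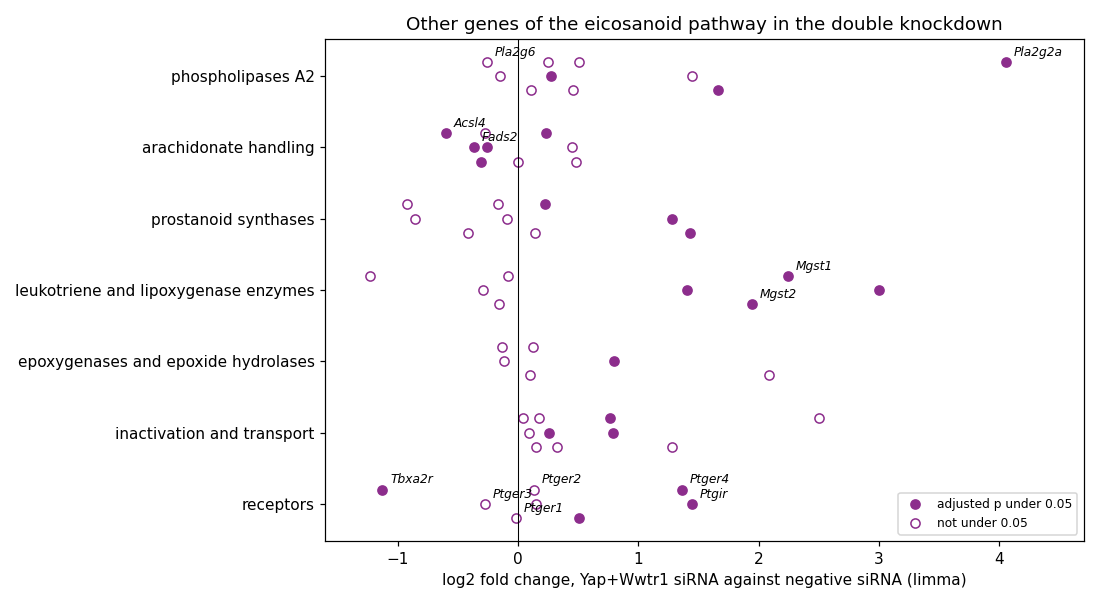
Log2 fold change of Yap+Wwtr1 siRNA against negative siRNA (horizontal axis, limma, 3 libraries per group) for the 60 other pathway genes tested, by role; filled points have an adjusted p under 0.05 and names mark genes given in the text. Pla2g2a lies furthest to the right (4.05), and 18 filled points lie above 0 and 5 below.

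Markers of other cell types were present in all groups. As a share of all normalized counts they ran from 0.116% to 0.279% for cardiomyocytes, 0.0220% to 0.145% for macrophages, 0.00338% to 0.00825% for endothelium, 0.00352% to 0.00694% for mesothelium and 0.453% to 1.5% for smooth muscle, whose genes are also made by activated fibroblasts. In the double knockdown 5 of 10 endothelial markers and 3 of 10 cardiomyocyte markers rose, 1 of 13 macrophage markers fell, and 2 of 7 smooth muscle markers rose and 2 fell, beside 17.1% of all genes called higher and 15.6% lower. Of the fibroblast markers 4 of 10 rose and 3 fell, and of 7 mesothelial markers 1 rose and 1 fell. Of the defining markers of platelets, which are known for Alox12, 3 of 10 were listed, and limma called 0 of these 3 (0 had an unadjusted p under 0.05). Their sum was 252 to 391 normalized counts with negative siRNA, 344 to 502 with Yap siRNA, 219 to 247 with Wwtr1 siRNA and 118 to 643 with Yap+Wwtr1 siRNA. Most of this sum was Pf4 alone. With Yap+Wwtr1 siRNA Pf4 was 106, 148 and 611 in replicates 1, 2 and 3, the order of the macrophage marker sum. Of 10 mast cell markers 2 were listed and 1 of them rose, and of 8 neutrophil markers 2 were listed and 1 was tested, with 0 called by limma (1 at an unadjusted p under 0.05). Listed at 0 in at least 1 library were Emcn and Cldn5 (endothelium), Krt19 (mesothelium), Gp1ba (platelets), and Csf3r and Camp (neutrophils). The part of these markers in the differences above was not tested.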

How the data were processed

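RNA sequencing libraries from 12 cultures (4 siRNA groups, 3 libraries each) were used. Per the study's methods and processing notes, the authors trimmed reads with Trim Galore 0.6.5, aligned them with HISAT2 2 (rat build rn6), obtained gene abundances from StringTie and normalized them by DESeq2. Whether counting used strand is not given in the sources used here. The deposited signal values are, per these methods, counts divided by 1 size factor per library. They were whole multiples of 1 step per library (within 0.01 step) for 100% of 147252 values, and library totals take 1 step as 1 count, an inference that did not pass a check of whole reads in every library. A second copy of the table and the authors' own comparison columns (means, log2 fold changes and p-values) were not used.

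Because the deposited values are normalized, log2(normalized count + 1) was tested with limma 3.58.1 in R 4.3.3 (eBayes with trend, all 12 libraries in 1 fit, no covariates, two-sided). The 11871 genes with a mean of at least 10 were tested, all 10 eicosanoid genes among them, with Benjamini-Hochberg adjustment over these genes. The steps were checked on simulated data. Fold changes understate those of low genes. The genes, lists and tests were chosen with earlier results of these data known. Other pathway genes were named if called with Yap siRNA, Yap+Wwtr1 siRNA or between them, at most the 3 largest rises and falls each with a mean of at least 100, plus receptors of a called enzyme's product. Pattern likeness took the 3 highest Pearson r per gene with a mean of at least 100. It is not reported here for Ptgs1.

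Same-numbered libraries of the negative, Yap and Wwtr1 siRNA groups deviated together (9 correlations of 0.104 to 0.276, limit 0.1; separate litters per replicate), so the number was taken to pair them. With Yap+Wwtr1 siRNA the correlations ran from -0.127 to 0.180, and only a number is shared. The main fit used no covariates, so it left the pairing out. With the number as a block and without the Yap+Wwtr1 siRNA libraries, more genes were called for the single knockdowns, as given at the end. Replicates differed by more than counting noise. Alternatives were other filters (no minimum, or a mean of 100), pseudocounts of 0.1 and 10, scaling by TMM or upper quartile, no trend, fewer groups, a replicate block and leaving out each library.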

Additional observations from a re-analysis of the deposited data

Results flagged for a closer look

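Mgst2, a microsomal glutathione transferase of leukotriene metabolism, passed the threshold for the interaction. It was the only one called of the 60 other pathway genes tested and the 9 eicosanoid genes other than Alox12, beside 1.03% of all genes. The interaction asks whether Wwtr1 siRNA moved a gene differently in cells that had also received Yap siRNA. Mgst2 was 114 to 136 normalized counts with negative siRNA, 101 to 177 with Yap siRNA, 94.5 to 155 with Wwtr1 siRNA and 378 to 578 with Yap+Wwtr1 siRNA. The interaction was 1.77 on the log2 scale (adjusted p 0.0420 by limma, SE 0.35). It was lost in 10 of 12 fits without 1 library, all except those without Yap+Wwtr1 siRNA replicate 3 or Yap siRNA replicate 1, with values of 1.54 to 1.92 in those that lost it, and also without the mean-variance trend (limma adjusted p 0.0732).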

How the results depend on the processing

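The values that chose Alox12 (Wwtr1 against negative siRNA, and Alox12 wherever either group enters) are left out of the counts of eicosanoid genes here. Over the 55 other log2 fold changes and their alternatives, 1102 of 1146 values stayed on their side of the threshold, 27 lost the call, 17 gained it and 0 of the called values reversed. Of the 1102, 34 values that did not pass had the opposite sign. TMM (its formula coded directly) and upper-quartile scaling moved the median gene by at most 0.0391. The planned edgeR and DESeq2 fits on recovered reads were not run, because the check of whole reads was not passed in every library.

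The replicate block without the Yap+Wwtr1 siRNA libraries gave 1904 genes called for Yap siRNA (570 without it), 2527 for Wwtr1 siRNA (1064) and 2680 between them (1044). In the same order it called 10, 17 and 17 of the other pathway genes. Of the 9 eicosanoid genes other than Alox12 it called 2 for Yap siRNA (Ptgis added) and 2 between the single knockdowns (Pla2g4a and Alox15 added). With the replicate block over all 12 libraries the counts were 874 genes and 2 other pathway genes for Yap siRNA and 231 genes for the interaction (122), and Alox5ap in the double knockdown was lost (limma adjusted p 0.0555). Without the trend, 294 genes, 0 of the 9 and 0 other pathway genes were called for Yap siRNA, and 60 genes and 0 other pathway genes for the interaction. With the compared groups only, other pathway genes called with Yap siRNA were 0, of the 9 eicosanoid genes 0 were called for Yap siRNA and 1 between the single knockdowns, and Yap+Wwtr1 against Yap siRNA gave 774 genes (1637) and 5 other pathway genes (9). The causes were not tested.

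Leaving out each library gave 111 to 764 genes, 0 to 1 of the 9 and 0 to 2 other pathway genes for Yap siRNA. For Wwtr1 siRNA they were 548 to 1419 genes and 3 to 8 other pathway genes. In the order of Yap siRNA the ranges were 2745 to 4054, 1 to 3 and 17 to 22 for Yap+Wwtr1 siRNA, 758 to 1873, 1 to 2 and 4 to 11 for Yap+Wwtr1 against Yap siRNA, 1288 to 2340, 1 to 3 and 11 to 16 against Wwtr1 siRNA, 434 to 1409, 0 to 1 and 2 to 9 between the single knockdowns, and 31 to 160, 0 and 0 to 1 for the interaction. In the double knockdown, the count of the 9 fell from 3 to 1 without negative siRNA replicate 2 or Yap+Wwtr1 siRNA replicate 2. Without Yap+Wwtr1 siRNA replicate 3 it rose from 1 to 2 for Yap+Wwtr1 against Yap siRNA (Alox5ap added). Low counts limit Alox5, Ptgds and Ptges, and 3 libraries per group limit every comparison.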
